A study of Mus musculus with 40 samples.

Results

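The Cyp3a genes encode a family of cytochrome P450 enzymes of the liver and gut, and every array probe whose gene symbol in the probe annotation starts with Cyp3a and a digit was taken. These were 9 probes of 5 genes, out of 23574 probes and 10842 named genes on the array. Cyp3a11, Cyp3a13 and Cyp3a16 had 1 probe each, and Cyp3a25 and Cyp3a41a had 3 each, numbered 1 to 3 here. All 9 were kept in every test, since no filter on low values was applied. RNA from the liver of 40 C57BL/6J mice, an inbred strain, was hybridized to 40 two-colour arrays, 1 per animal, against a common pool of C57BL/6J liver. The mice formed 8 groups of 5. A pair of groups were intact, 1 of each sex. The other 6 had been ovariectomized (females) or castrated (males) and carried a subcutaneous pellet of placebo, of 17β-estradiol (E2) or of the androgen dihydrotestosterone (DHT). Surgery was done at 8 weeks and pellet placement at 12 weeks, and the animals were killed at 14 weeks following a 12 h fast. All were fed chow containing 4% fat. E2 pellets of 0.5 mg (about 300 pg/ml in plasma) and DHT pellets of 5 mg (1 to 2 ng/ml) released over 21 days, so each hormone was given at 1 dose and read at 1 time. The labels do not state whether intact mice had a pellet, so surgery and pellet cannot be told apart where an operated group is set against an intact one.

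CYP3A enzymes sit in the endoplasmic reticulum, take electrons from NADPH through cytochrome P450 reductase, and oxidize steroid hormones, bile acids and many drugs. Their genes are classic targets of the xenobiotic receptor PXR (Nr1i2) and of its relative CAR (Nr1i3), and several mouse members follow the sex-specific pattern of growth hormone release, with Cyp3a41 and Cyp3a44 known as female-predominant forms in adult liver. Cyp3a11 is a main CYP3A form of adult mouse liver and the usual readout of PXR activity, Cyp3a13 is expressed in liver and gut, Cyp3a16 was first described in fetal liver, and Cyp3a25 is a further form of liver and gut.

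In the RefSeq gene table of build GRCm38.p6, 13 Cyp3a genes lie on chromosome 5, of which 9 are protein-coding and 4 are pseudogenes. The 5 measured genes, all among the 9, are Cyp3a13 (chr5:137892933-137925610), Cyp3a16 (chr5:145436309-145469740), Cyp3a41a (chr5:145694049-145720136), Cyp3a11 (chr5:145854607-145879854) and Cyp3a25 (chr5:145977192-146009644), while the probes' own places within them are not analysed here, and Cyp3a41b, Cyp3a44, Cyp3a57 and Cyp3a59 were not analysed here. Cyp3a13 lies 7.42 Mb away from the cluster of the other coding members, which spans 770 kb from Cyp3a57 to Cyp3a59. The RefSeq promoter table (GRCm38.p6) held all 5 members, with 250 bases before and 50 after each listed start. The windows of 4 genes are shown because the probes of these genes either moved together or parted in the livers: those of Cyp3a11 (chr5:145879805-145880104), Cyp3a16 (chr5:145469674-145469973), Cyp3a41a (chr5:145720087-145720386) and Cyp3a25 (chr5:146009569-146009868). All lie on the minus strand and are written 5′ to 3′ in the direction of transcription, with capitals where 1 of 5 searched motifs matched.
Cyp3a11: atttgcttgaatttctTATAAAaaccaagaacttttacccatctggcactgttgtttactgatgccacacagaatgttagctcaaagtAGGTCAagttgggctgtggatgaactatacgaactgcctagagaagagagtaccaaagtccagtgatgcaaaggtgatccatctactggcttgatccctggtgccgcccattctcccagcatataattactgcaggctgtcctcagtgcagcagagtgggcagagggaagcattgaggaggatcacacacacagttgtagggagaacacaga
Cyp3a16: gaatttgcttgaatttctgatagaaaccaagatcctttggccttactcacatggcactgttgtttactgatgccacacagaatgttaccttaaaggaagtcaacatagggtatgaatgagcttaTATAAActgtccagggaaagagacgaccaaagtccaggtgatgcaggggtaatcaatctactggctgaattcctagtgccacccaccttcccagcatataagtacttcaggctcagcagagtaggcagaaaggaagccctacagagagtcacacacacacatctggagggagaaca
Cyp3a41a: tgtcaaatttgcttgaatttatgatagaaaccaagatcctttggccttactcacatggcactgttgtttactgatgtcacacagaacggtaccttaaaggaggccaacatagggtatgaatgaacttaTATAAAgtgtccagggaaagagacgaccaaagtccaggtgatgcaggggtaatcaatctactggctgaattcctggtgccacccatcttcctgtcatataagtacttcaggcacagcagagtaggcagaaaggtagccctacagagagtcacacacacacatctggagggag
Cyp3a25: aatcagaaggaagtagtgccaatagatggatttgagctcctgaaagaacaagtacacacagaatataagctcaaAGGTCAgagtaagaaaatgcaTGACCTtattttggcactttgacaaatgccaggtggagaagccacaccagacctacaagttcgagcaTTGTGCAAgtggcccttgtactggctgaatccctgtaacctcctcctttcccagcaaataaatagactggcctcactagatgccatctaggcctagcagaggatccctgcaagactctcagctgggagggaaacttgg

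The motifs were searched on both strands as plain letters, and no 2 matches overlap in these windows. The letters AGGTCA, the hexamer that nuclear receptors bind, which 16.3% of 32851 promoter windows of this length hold, matched Cyp3a11 at -162 to -157 from the start and Cyp3a25 at -176 to -171 and, on the other strand, at -155 to -150. The letters TATAAA, found in 13.6% of windows, matched Cyp3a11 at -234 to -229, Cyp3a16 at -126 to -121 and Cyp3a41a at -122 to -117. TTGNNCAA, in 6.4% of windows, matched Cyp3a25 at -88 to -81. TTCNNNGAA, in 8.3%, and TTATGNAA, in 3.38%, had no match in the 5 members' windows, and the Cyp3a13 window, whose listed start lies inside the annotated gene, matched none of the motifs. The windows of Cyp3a16 and Cyp3a41a were alike at 280 of 296 aligned bases (94.6%), and that of Cyp3a41a matched the unmeasured copy Cyp3a41b at 295 of 296 (99.7%). Cyp3a11 shared 83.2% with Cyp3a16 and 81.8% with Cyp3a41a, and Cyp3a25 shared 96.3% with the unmeasured Cyp3a59. These are identities of promoter windows, and those of transcripts or probes were not computed. How well each probe separates its gene from its neighbours was not tested.

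Each value is a log2 ratio of a liver to the pool, so levels of different genes cannot be compared, and 0 means the pool's level. The Y-linked genes Eif2s3y and Kdm5d read lower in each of the 20 females than in the lowest male. Hepatocyte markers (6 of 10 measured) had group means between -0.14 and 0.11, but a ratio to a liver pool cannot itself show the tissue. Within groups, the arrays differed along 1 shared axis, computed from probes outside the family, that held 26.2% of the variance within groups and to which 25.2% of all probes had an absolute correlation over 0.7 (Gapdh, a glycolytic enzyme, -0.70). The labels name no batch, and what the axis reflects was not tested. It is named beside the results that move with it.

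The Cyp3a probes varied far more between animals of the same group than most probes did. The within-group SD was 0.716 for Cyp3a16, 0.657 for Cyp3a11 and 0.512 for Cyp3a13, against a median of 0.146 and a 95th percentile of 0.338 over all probes. Only Cyp3a41a probes 1 and 2, at 0.218 and 0.229, lay below that 95th percentile by a wide margin, and Cyp3a25 probe 1 was just under it at 0.337. Differences between groups accounted for 19.1% to 48.3% of a probe's variance, the most for Cyp3a16. When the 8 group means of each probe were put in order, 1 of 63 gaps between neighbours exceeded that probe's within-group SD. This was the gap of 0.93 for Cyp3a16 between intact females and ovariectomized females with E2. Neighbours in an order of 8 means lie close by construction, and the SD is that of single animals. The count therefore does not show whether groups differ.

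**Figure D1:**
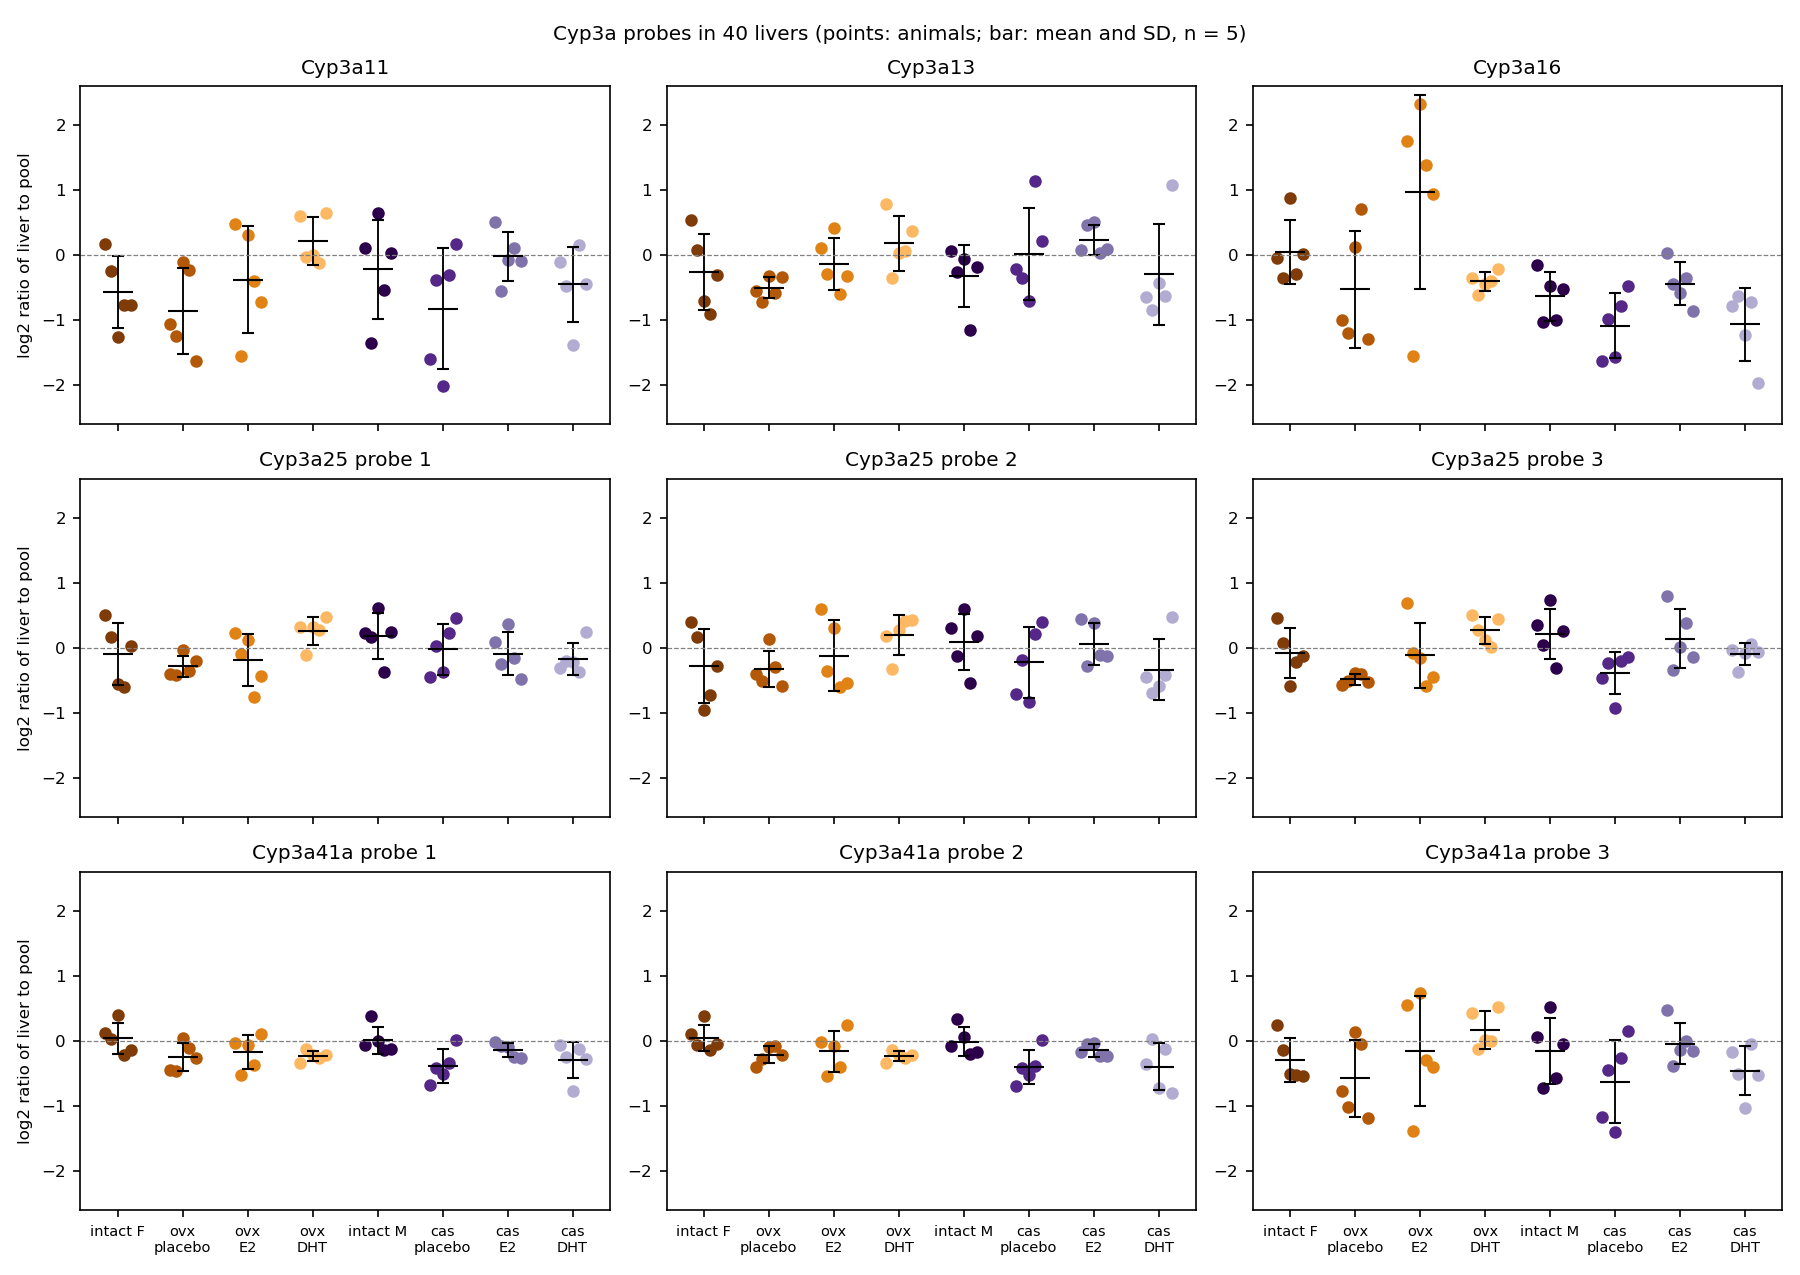
Log2 ratio of liver to pool (vertical axis) of the 9 Cyp3a probes in 8 groups of 5 mice (horizontal axis; ovx, ovariectomized; cas, castrated), with points for animals and bars for mean and SD. Most groups overlap, and the mean of Cyp3a16 in ovariectomized females with E2 stands highest at 0.97, with 1 animal of that group at -1.54.

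Of the 13 comparisons tested, castration was the one in which Cyp3a probes passed (limma, Benjamini-Hochberg adjusted p under 0.05 over all 23574 probes). Placebo-treated castrated males were lower than intact males for Cyp3a25 probe 3 and Cyp3a41a probe 1. These are 2 of 9 probes, in a comparison in which 12.1% of all probes passed and 6.92% passed as lower, and 3 of 9 had an unadjusted p under 0.05 against 26.2% of all probes. The differences of the 9 probes were negative for 8 and had a median of -0.39, beside a median of 0.02 over all probes.

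Cyp3a25 probe 3 read 0.35, 0.05, 0.74, -0.30 and 0.25 in the 5 intact males. In the castrated males with placebo it read -0.46, -0.23, -0.92, -0.19 and -0.14. All 5 castrated animals were below the median intact male, and the groups overlapped through intact male 11 at -0.30. The mean fell by 0.61 ± 0.21 (SE), a fold of 0.657 (limma, n = 5 against 5, adjusted p = 0.0484). Probes 1 and 2 of the same gene differed by -0.20 and -0.31, with adjusted p of 0.558 and 0.48, so the 3 probes shared the sign but not the call.

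Cyp3a41a probe 1 read -0.06, 0.37, -0.01, -0.15 and -0.12 in intact males. It read -0.67, -0.41, -0.52, -0.34 and 0.01 in castrated males with placebo. Of the castrated animals 4 lay below every intact male, while the fifth, animal 28, lay above all but 1 of them. The mean fell by 0.39 ± 0.13, a fold of 0.761 (limma, adjusted p = 0.0477). Probe 2 of this gene had almost the same difference, -0.39 ± 0.14, with an adjusted p of 0.0659, and probe 3 differed by -0.47 ± 0.31 (adjusted p = 0.348).

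Both calls sat close to the threshold. The count of 2 became 0 without any 1 of intact males 8, 10 and 12 or castrated males 24, 25 and 26, and 1 without male 9 or 27. With quantile normalization Cyp3a25 probe 3 differed by -0.51 (adjusted p = 0.137) and Cyp3a41a probe 1 by -0.35 (0.0787). The mean position on the array axis was 0.34 in intact males and -0.39 in castrated males with placebo, and with the axis as a covariate, chosen after seeing the data, the differences were -0.49 (0.0695) and -0.35 (0.0654). An index of clock genes (output and repressor genes minus activators) had a mean of -0.48 in intact and -0.04 in castrated males. With this index as a covariate Cyp3a41a probe 1 differed by -0.41 (0.0967), while Cyp3a25 probe 3 differed by -0.74 and still passed. The index genes Usp2 and Nfil3 passed in this comparison, at 0.50 and -0.61 (limma, adjusted p = 0.0108 and 0.0338). Whether the index follows time of day or the treatment was not tested. In a bulk sample, fewer cells that express a gene and less RNA per cell cannot be told apart.

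Some markers of several cell types passed in the same comparison, in which 12.1% of all probes passed and 6.92% passed as lower. With lists this short, counts of 1 or 2 do not show that a cell type changed. Of the hepatocyte markers 2 of 6 measured fell: Tdo2, of tryptophan breakdown, by 0.61 (limma, adjusted p = 0.00808) and Serpina1a, a secreted protease inhibitor, by 0.35 (0.00282). Of the erythroid markers 1 of 4 fell, Alas2 by 1.41 (6.65e-05), and of the intestinal ones 2 of 6, Lct by 0.69 (1.72e-05) and Fabp2 by 0.43 (0.0463). Of the T and B cell markers 2 of 7 rose, Cd2 by 0.62 (0.00683) and Cd3d by 0.24 (0.0294), as did 1 of 4 stellate cell markers, Reln by 0.42 (0.00126), and 1 of 7 endothelial markers, Tek by 0.20 (0.0198). The mean over a list went from 0.11 (-0.01 to 0.42) in intact males to -0.05 (-0.19 to 0.15) in castrated males for hepatocyte markers, from 0.14 (-0.27 to 0.49) to -0.32 (-0.46 to -0.15) for erythroid, from 0.14 (-0.13 to 0.33) to -0.14 (-0.25 to -0.05) for intestinal, from -0.11 (-0.20 to 0.01) to 0.13 (0.07 to 0.19) for T and B cell and from -0.13 (-0.18 to -0.06) to 0.11 (-0.00 to 0.25) for stellate cell markers. None of the 9 Kupffer cell, 7 pericentral, 4 periportal or 2 bile duct markers passed. Their part in the Cyp3a differences was not tested.

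Cyp3a16 was the member with the widest range, from -1.97 to 2.32, and its highest values lay in ovariectomized females given E2. In that group it read 1.75, -1.54, 2.32, 1.39 and 0.94. In ovariectomized females with placebo it read -0.99, -1.19, 0.13, 0.71 and -1.29. Thus 4 of the 5 E2 animals were above every placebo animal, and the fifth, animal 34, was below every one.

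The mean difference was 1.50 ± 0.43, a fold of 2.82 with a 95% interval from 0.62 to 2.37 on the log2 scale. It did not pass over all probes (limma, unadjusted p = 0.00137, adjusted p = 0.0932), and 0 of 9 members did, where 0.632% of all probes passed. At an unadjusted p under 0.05 the count was 1 of 9, against 10.8% of all probes. Without animal 34 the difference was 2.13 with an adjusted p of 0.000552. With array weights, which gave that array a weight of 0.393, it was 1.78 (0.00125), and over the other settings tried the adjusted p reached 0.529. Leaving out any of the 10 animals other than animal 34 gave no call. Animal 34 did not meet the 0.71 gap rule for outliers described at the end.

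The same animals with E2 were compared with the DHT group of ovariectomized females. With DHT, Cyp3a16 read -0.35, -0.62, -0.44, -0.39 and -0.21, the narrowest group for this gene, with an SD of 0.15. The difference of E2 from DHT was 1.37 ± 0.43 (limma, adjusted p = 0.0665), and without animal 34 it was 2.00 (0.000382). Leaving out any other of the 10 animals gave no call. With all animals 0 of 9 members passed where 3.79% of all probes did, and 2 of 9 had an unadjusted p under 0.05 against 15.1% of all probes. The second of these was Cyp3a25 probe 1, at -0.44 ± 0.20.

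Genes of Kupffer cells, the resident macrophages of the liver, were also higher with E2 than with DHT in ovariectomized females. All 9 listed markers were measured, and 8 of them passed as higher with E2 than with DHT, where 3.79% of all probes passed in either direction. Their median difference was 1.17, beside -0.001 over all probes. The scavenger receptor gene Marco rose by 2.49 ± 0.60 (limma, adjusted p = 0.0128) and Clec4f, which marks Kupffer cells, by 0.86 ± 0.16 (0.00216). Against placebo 0 of the 9 passed, where 0.632% of all probes did, with a median difference of 0.86, beside -0.009 over all probes. The mean of the 9 markers was 0.54 (-0.28 to 1.65) with E2, -0.26 (-0.45 to 0.09) with placebo and -0.62 (-0.80 to -0.32) with DHT. By animal it was -0.22, -0.28, 1.05, 1.65 and 0.52 with E2, so animal 34, low for Cyp3a16, was low for the markers, while animal 33 was high for Cyp3a16 and low for the markers. The means of Cyp3a16 were 0.97 with E2, -0.53 with placebo and -0.40 with DHT. Over 40 animals with group means removed, the marker mean had r = 0.348 with Cyp3a16 (permutation adjusted p = 0.441). The part of these markers in the result was not tested.

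**Figure D2:**
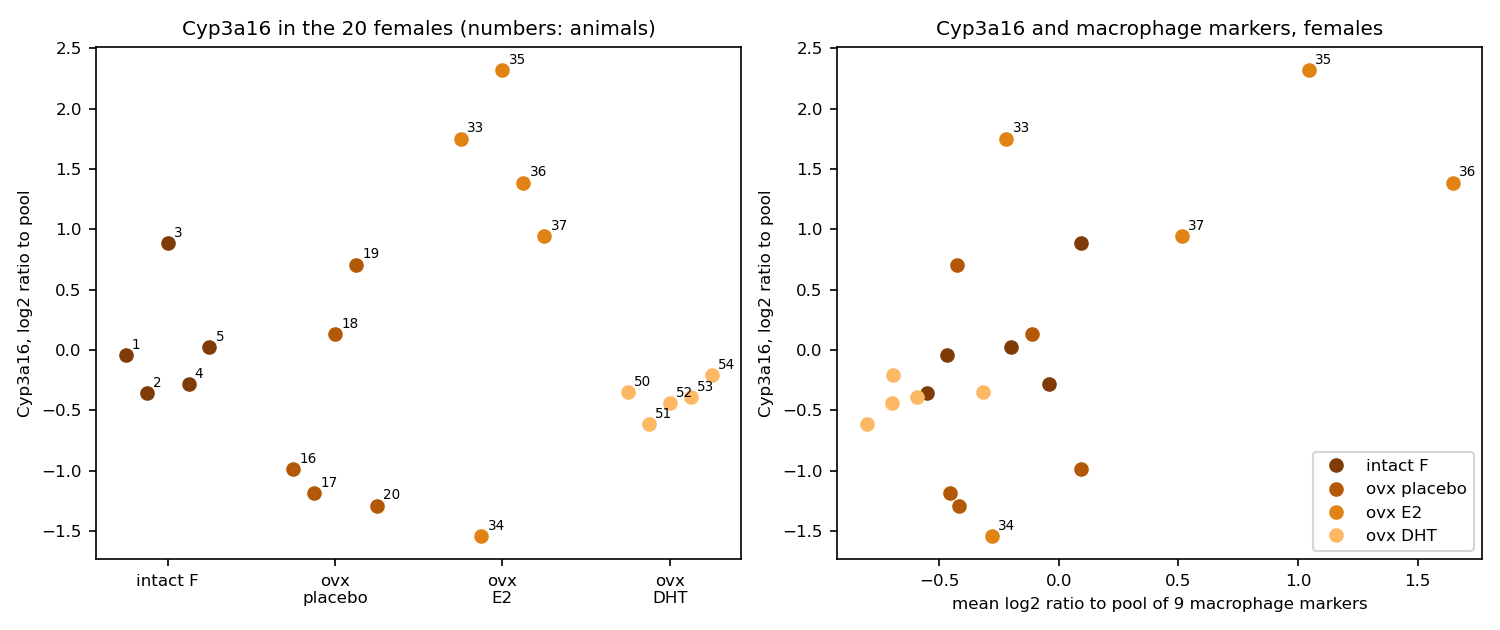
On the left, Cyp3a16 as log2 ratio to pool in the 20 females by group, with animal numbers; right, the same values against the mean log2 ratio of 9 Kupffer cell and macrophage markers. In the E2 group 4 animals lie between 0.94 and 2.32 and animal 34 at -1.54, and E2 animals 35, 36 and 37 have the highest marker means.

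Cyp3a16 was at or below the pool in nearly all males. It read -0.15, -1.02, -0.47, -0.995 and -0.52 in intact males. It read -1.63, -0.98, -1.56, -0.78 and -0.47 after castration with placebo, 0.04, -0.44, -0.57, -0.35 and -0.86 with E2, and -0.78, -0.63, -1.23, -0.72 and -1.97 with DHT. Of these 20 males 1, an E2 animal, was above the pool. In castrated males the E2 difference from placebo was 0.65 ± 0.43 (adjusted p = 0.507), and the E2 effect in females exceeded that in males by 0.85 ± 0.61 (adjusted p = 0.993), so an effect particular to females was not shown. Intact females read -0.04, -0.36, 0.89, -0.28 and 0.02, a mean 0.68 ± 0.43 above intact males (interval -0.20 to 1.55, adjusted p = 0.371).

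Cyp3a25 was also the member with the clearest separation under DHT in females. Probe 3 read -0.57, -0.51, -0.38, -0.39 and -0.52 in ovariectomized females with placebo. With DHT it read 0.51, 0.27, 0.13, 0.01 and 0.45. Every placebo animal was below the pool, every DHT animal was above it, and the groups did not overlap, as was the case for 4.50% of all probes.

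The difference was 0.75 ± 0.21, a fold of 1.68 with an interval from 0.33 to 1.17, and it did not pass over all probes (limma, adjusted p = 0.0643). Probe 1 differed by 0.54 ± 0.20 (0.253) and probe 2 by 0.53 ± 0.27 (0.467). Without animal 53 of the DHT group probe 3 differed by 0.81 (0.0415), and leaving out any other of the 10 animals gave no call. With quantile normalization it differed by 0.84 (0.0179), and with only these groups in the fit its adjusted p was 0.00511 and that of probe 1 was 0.0295. The setting with the clock index as a covariate gave 0.61 (0.280) and that with the array axis 0.62 (0.102), and 3 of the 7 settings other than leaving out an animal called the probe. In this comparison 0 of 9 members passed, where 1.15% of all probes did, while 5 of 9 had an unadjusted p under 0.05 against 11.3% of all probes. The 9 differences were positive for 8 and had a median of 0.54, beside -0.01 over all probes. The mean of the array axis was 0.53 in this group and -0.29 with placebo, and that of the clock index 0.49 and 0.03.

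The other members with an unadjusted p under 0.05 under DHT in females were Cyp3a11, Cyp3a13 and Cyp3a41a probe 3. Cyp3a11 read -1.06, -1.24, -0.11, -0.23 and -1.63 with placebo. It read 0.60, -0.03, 0.00, -0.11 and 0.65 with DHT. All placebo animals were below the pool, and 4 of 5 DHT animals were above every placebo animal. The difference of 1.07 ± 0.40, a fold of 2.11, had an adjusted p of 0.232 (limma).

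Cyp3a13 read -0.54, -0.71, -0.32, -0.57 and -0.34 with placebo in ovariectomized females. With DHT it read 0.79, -0.35, 0.03, 0.07 and 0.37, again with 4 of 5 animals above every placebo animal. The difference was 0.68 ± 0.31 (limma, adjusted p = 0.392). With the array axis as a covariate Cyp3a11 differed by 0.65 (0.243), Cyp3a13 by 0.38 (0.560), Cyp3a25 probe 2 by 0.23 (0.663) and Cyp3a41a probe 3 by 0.41 (0.437), in place of 1.07, 0.68, 0.53 and 0.74.

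Cyp3a41a probe 3 differed by 0.74 ± 0.31 (limma, adjusted p = 0.333), whereas probes 1 and 2 of that gene differed by 0.02 ± 0.13 and -0.02 ± 0.14. The intervals of probes 1 and 2, -0.26 to 0.29 and -0.31 to 0.26, do not reach the 0.74 of probe 3, although that of probe 3, 0.11 to 1.38, overlaps them, and the difference between probes was not tested. On 4 of the 5 DHT arrays probes 1 and 2 lay within 0.01 of a value that many probes of the same array share, described further on, and were equal to it (within 1e-09) on 1 and 3 of them. Whether these probes measured the gene there is unknown.

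**Figure D3:**
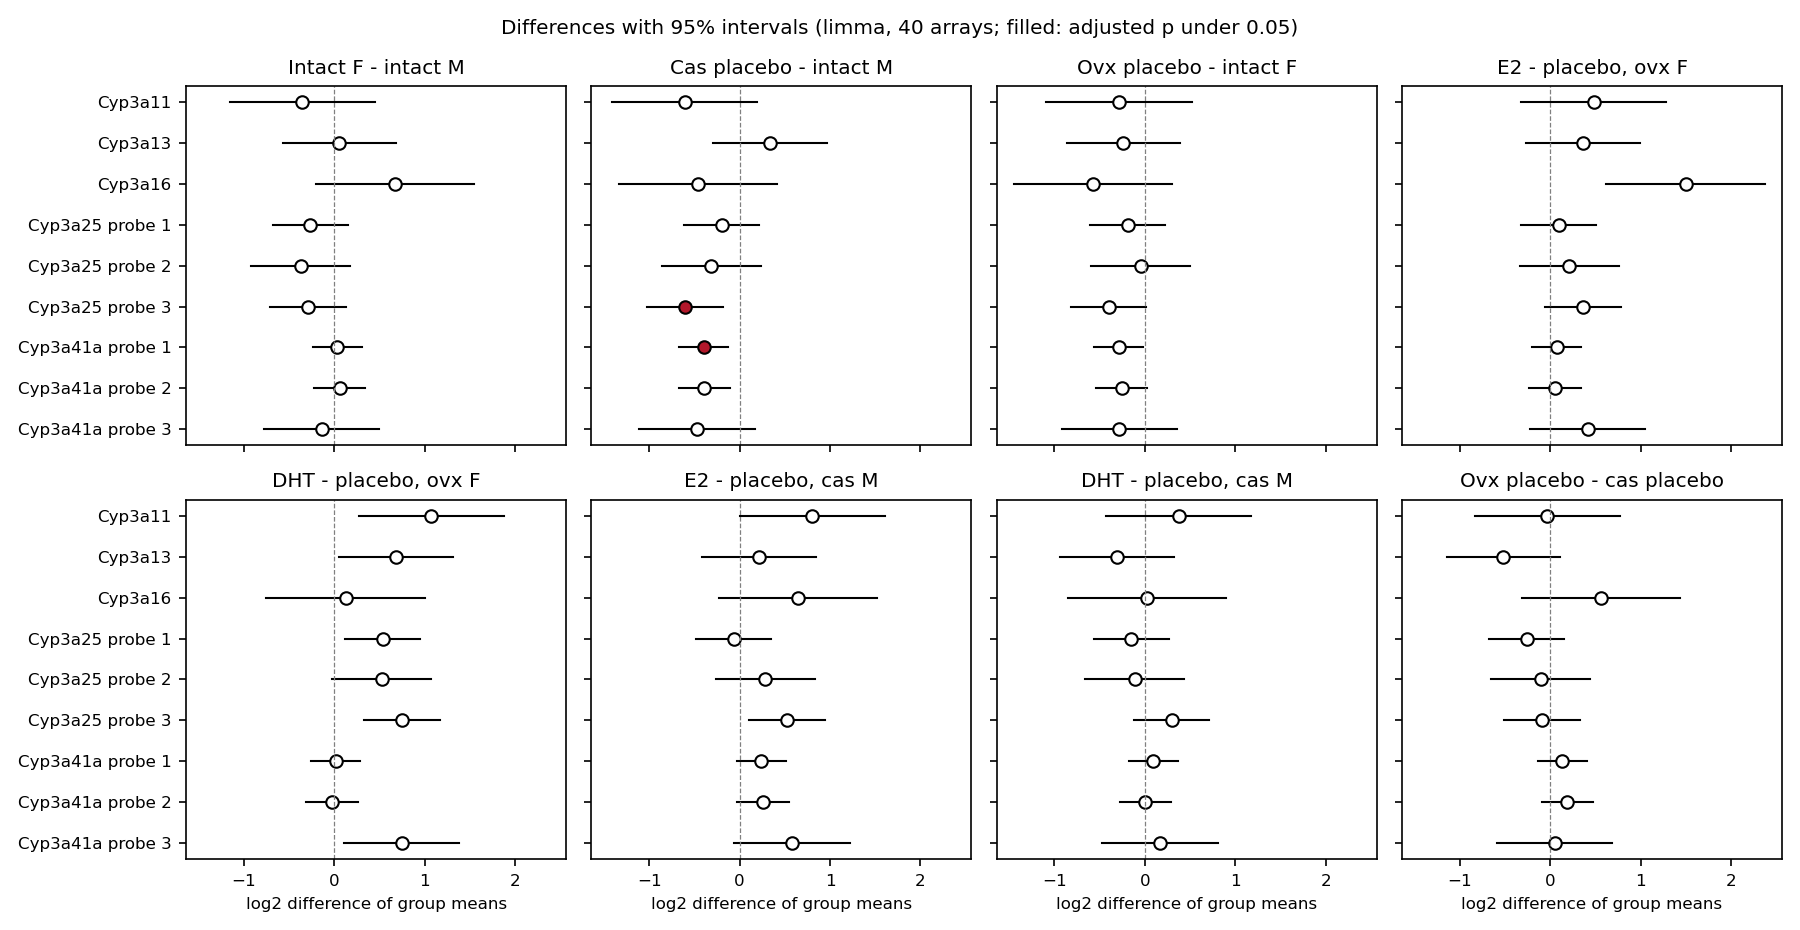
Log2 differences of group means (horizontal axis) of the 9 Cyp3a probes (rows) in 8 comparisons (panels), with 95% intervals from limma over 40 arrays; filled points passed at an adjusted p under 0.05. The 2 filled points are Cyp3a25 probe 3 at -0.61 and Cyp3a41a probe 1 at -0.39 after castration, and the largest open difference is Cyp3a16 with E2 in females at 1.50.

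In castrated males neither hormone gave a call. With DHT the 9 differences ran from -0.31 to 0.38, and 0 of 9 passed, where 3.47% of all probes did, with 0 of 9 at an unadjusted p under 0.05 against 15.8%. Cyp3a13 read -0.63, -0.84, -0.43, -0.62 and 1.07 in castrated males with DHT. Of these, 4 were low and animal 63 stood apart. With E2, 0 of 9 passed, where 1.18% of all probes did, and 2 of 9 had an unadjusted p under 0.05 against 13.7%: Cyp3a11 at 0.81 ± 0.40 (adjusted p = 0.365) and Cyp3a25 probe 3 at 0.53 ± 0.21 (0.234).

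Cyp3a11 in castrated males read -1.59, -0.38, -2.01, -0.30 and 0.17 with placebo and 0.51, -0.55, -0.08, 0.11 and -0.09 with E2. The placebo group held both the lowest Cyp3a11 value of the study and a value above the pool. Cyp3a13 was above the pool in 5 of 5 castrated males with E2, at 0.07, 0.47, 0.51, 0.04 and 0.09, but the placebo group spanned from -0.71 to 1.14 and the difference was 0.22 ± 0.31 (limma, adjusted p = 0.752). E2 against DHT in castrated males was positive for all 9 probes, with a median of 0.40, and 0 of 9 passed, where 0.708% of all probes did, with 0 of 9 at an unadjusted p under 0.05 against 12.5%. The mean of the array axis in castrated males was 0.44 with E2, -0.45 with DHT and -0.39 with placebo. With the axis as a covariate, E2 against DHT was -0.03 for Cyp3a11 and -0.09 for Cyp3a25 probe 1, and the other probes stayed positive. With that covariate, E2 against placebo was 0.38 for Cyp3a11, 0.40 for Cyp3a25 probe 3 and -0.08 for Cyp3a13.

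Intact females and males were not told apart by any Cyp3a probe. For Cyp3a41a probes 1 and 2 the difference, female minus male, was 0.03 ± 0.13 (interval -0.24 to 0.30) and 0.06 ± 0.14 (-0.23 to 0.34). Probe 1 read 0.12, 0.02, 0.40, -0.21 and -0.14 in intact females, over much the same range as the intact males. Probe 3 differed by -0.14 ± 0.31. Cyp3a11 differed by -0.35 ± 0.40, Cyp3a13 by 0.06 ± 0.31 and the Cyp3a25 probes by -0.27, -0.37 and -0.29. In this comparison 0 of 9 members passed in limma, where 8.69% of all probes did, and 0 of 9 had an unadjusted p under 0.05 against 21.9%; the smallest adjusted p was 0.371.

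Whether Cyp3a41a probes 1 and 2 measured a signal above background is unknown. On each array 6 to 82 probes shared 1 exact value, the most frequent on that array, of a meaning that no label states. Probes 1 and 2 lay at a median distance of 0.104 and 0.116 from it, against 0.216 over all probes, and 0.602% and 0.836% of all probes lay closer. They were equal to it on 1 and 3 arrays, all of ovariectomized females with DHT, and within 0.1 of it on 19 and 17 of 40 arrays, among them 4 of the 5 arrays of ovariectomized females with DHT, but on 1 and 2 arrays of castrated males with placebo and 1 and 1 of intact males. Probe 3 lay at a median distance of 0.317.

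Ovariectomy with placebo gave differences from intact females that were negative for all 9 probes, between -0.57 and -0.05, with a median of -0.28. None passed in limma (0 of 9, where 0.0339% of all probes did), and 1 of 9, Cyp3a41a probe 1 at -0.29 ± 0.13, had an unadjusted p under 0.05 against 5.05% of all probes. The gonadectomized placebo groups of the 2 sexes differed by -0.52 to 0.56, and 0 of 9 passed, where 0.0679% of all probes did, with 0 of 9 at an unadjusted p under 0.05 against 5.42%.

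Differences between the sexes in the response were tested as interactions. For gonadectomy 0 of 9 passed, where 4.4% of all probes did, and 0 of 9 had an unadjusted p under 0.05 against 16.4%. For E2 the counts were 0 of 9 and 0% of all probes, and 0 of 9 at an unadjusted p under 0.05 against 4.13%. For DHT they were 0 of 9 and 0%, with 2 of 9 at an unadjusted p under 0.05 against 7.59%: Cyp3a13, whose DHT effect was 0.99 ± 0.44 larger in females (limma, adjusted p = 0.582), and Cyp3a25 probe 1, at 0.69 ± 0.29 (0.55). Comparisons that share a placebo or intact group are not independent, and their values are set side by side here without a test of overlap.

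Members also varied together from animal to animal after group means were removed. Over 63 relations tested by permutation with 100000 resamples, 36 of them between members, 20 of the 36 had a Benjamini-Hochberg adjusted p under 0.05. Pairs of probes of the same gene are among the 36. The share among pairs of probes outside the family was not computed, so the count is not shown to be particular to the family. Of all probes, 25.2% had an absolute correlation over 0.7 to the array axis. The closest relation between members was that of Cyp3a11 and Cyp3a41a probe 3, with r = 0.961 and rho = 0.977 over 40 animals (permutation p = 1e-05, the smallest these resamples can give, adjusted 5.25e-05), and r = 0.958 without the 2 animals farthest from the median. These are probes of different genes, yet Cyp3a41a probe 3 followed Cyp3a11 more closely than it followed probes 1 and 2 of its own gene (r = 0.512 and 0.391, permutation adjusted p = 0.0134 and 0.0883). Probes 1 and 2 followed each other at r = 0.839, and Cyp3a11 followed them at 0.390 and 0.281 (permutation adjusted p = 0.0869 and 0.267).

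Cyp3a16 followed all 3 probes of Cyp3a41a, at r = 0.533, 0.546 and 0.772, and Cyp3a11 at 0.638 (rho = 0.559, 0.560, 0.747 and 0.677; permutation adjusted p = 0.00767, 0.00576, 0.000135 and 0.000593). Without the 2 farthest animals these were 0.481, 0.506, 0.680 and 0.578. With Cyp3a13 it had r = 0.06 and with the Cyp3a25 probes 0.117, 0.254 and 0.185, none of which passed. Cyp3a13, which lies apart from the cluster, followed Cyp3a25 probes 1 and 2 at 0.756 and 0.775 and probe 3 at 0.461 (rho = 0.794, 0.781 and 0.483; permutation adjusted p = 5.25e-05, 5.25e-05 and 0.00907), and at 0.787, 0.755 and 0.530 without the 2 farthest animals. Cyp3a25 probes 1 and 2 followed each other at 0.908, and probe 3 followed them at 0.690 and 0.727. Without the 2 farthest animals these were 0.902, 0.632 and 0.733.

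The array axis moved with several members, which share arrays as well as animals. Its correlation, group means removed, was 0.815 for Cyp3a25 probe 2, 0.795 for Cyp3a11, 0.789 for Cyp3a41a probe 3 and 0.721 for Cyp3a13. It was 0.606 for Cyp3a25 probe 1, 0.481 for its probe 3, 0.422 for Cyp3a16, and 0.284 and 0.0526 for Cyp3a41a probes 1 and 2. In the order of these 9 values, 86.8%, 84.7%, 83.9%, 77.0%, 65.4%, 53.9%, 48.0%, 33.1% and 6.11% of all probes had a smaller absolute correlation. Many probes outside the family thus followed the axis as closely. The part of the axis in the relations between members was not tested. The clock index passed with none of the 9 probes, with r between -0.20 and 0.20. For the Kupffer markers the largest were -0.474 with Cyp3a25 probe 3 (permutation adjusted p = 0.0628) and 0.348 with Cyp3a16 (0.441), which was 0.0571 without the 2 farthest animals.

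**Figure D4:**
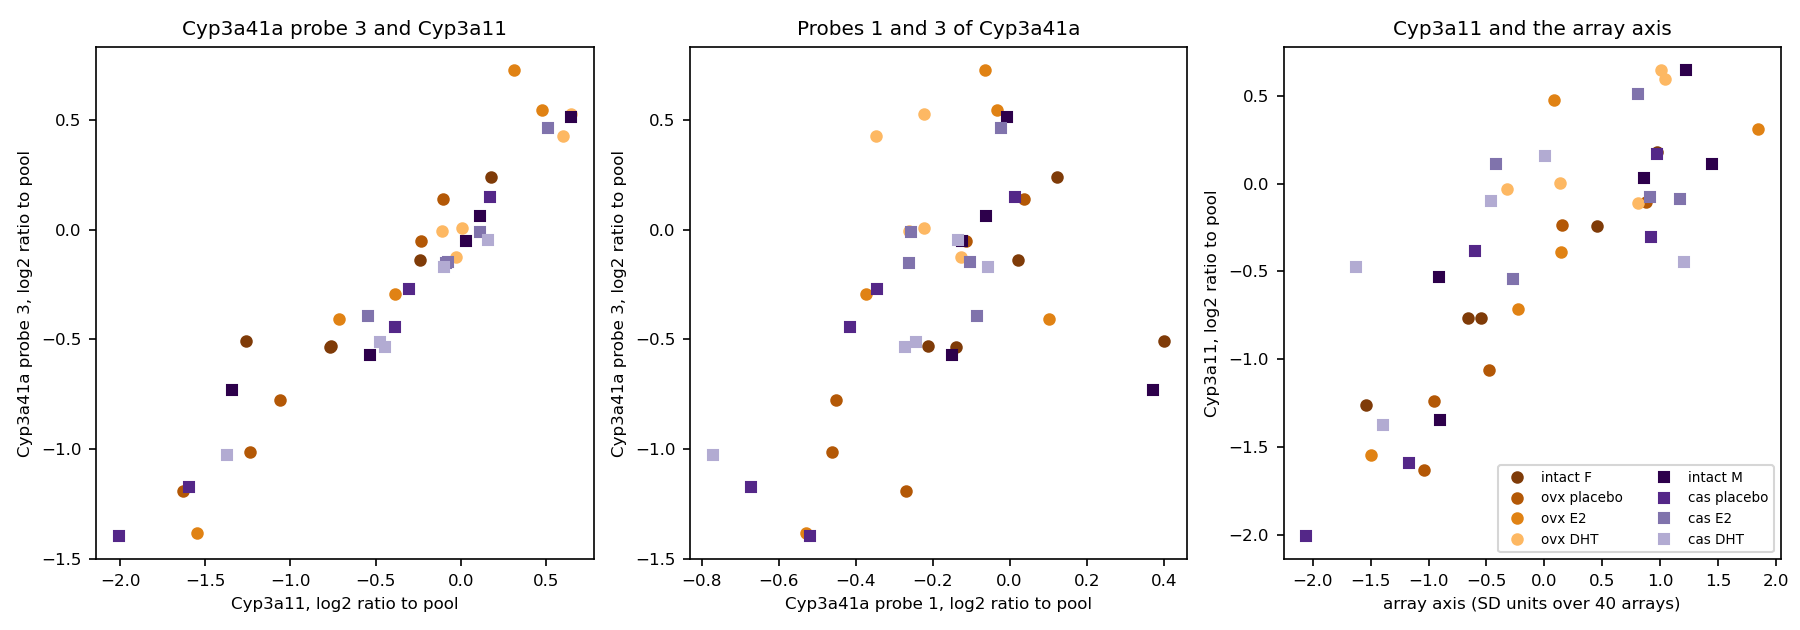
Values of 40 livers by group (circles, females; squares, males). Left, Cyp3a41a probe 3 against Cyp3a11 lies close to a line (r = 0.961 with group means removed); middle, probe 3 against probe 1 of Cyp3a41a scatters (r = 0.512); right, Cyp3a11 against the array axis in SD units over the 40 arrays (r = 0.795).

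As a description over the same 40 arrays, the genes outside the family most like the 2 called probes, among 10837 genes, were Dnajc21 (r = 0.80), Psmd14 (0.78) and Nsun2 (0.77) for Cyp3a25 probe 3, and Mal2 (0.62), Cmas (0.60) and C4bp (0.58) for Cyp3a41a probe 1. For the genes without a call, added after seeing the data, they were Pon2 (0.91), Nxt2 (0.89) and Cript (0.87) for Cyp3a11, Trpm7 (0.85), Zfp958 (0.85) and Itch (0.84) for Cyp3a13, and Med12l (0.72), Cybb (0.70) and Dyrk3 (0.69) for Cyp3a16. Cybb encodes a subunit of the phagocyte NADPH oxidase. Pon2 was also first for Cyp3a41a probe 3, at 0.86.

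Few listed regulators of the Cyp3a genes passed. Of 19 listed xenobiotic receptors and liver factors 18 were measured; Nr1i3 (CAR) and Hnf4a passed in none of the 13 comparisons, and Nr1i2 (PXR) was not analysed here. After castration 1 of 18 passed, where 12.1% of all probes did: Foxa1, a pioneer factor of liver enhancers, fell by 0.79 ± 0.13 (limma, adjusted p = 4.33e-05). With DHT in castrated males 2 of 18 passed, where 3.47% of all probes did: Nr5a2, a nuclear receptor of bile acid synthesis, fell by 0.40 ± 0.11 (0.0339), and Onecut1 rose by 0.32 ± 0.09 (0.0461), while its other probe differed by -0.11. In the other comparisons 0 of 18 passed.

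Other targets of PXR and CAR, of which 19 of 26 were measured, had calls in several comparisons. Cyp3a11 passed in none, but its within-group SD of 0.657 was larger than that of 99.5% of all probes. Its mean was -0.22 in intact males and -0.82 in castrated males with placebo. Of the 19 other targets, 5 were higher and 5 lower in intact females against males, where 8.69% of all probes passed. The drug efflux pump gene Abcb1a differed by 1.55 ± 0.28 (limma, adjusted p = 0.0002), the stress gene Gadd45b by 1.82 ± 0.31 (9.75e-05) and Abcb1b, the second copy of the pump, by -0.45 ± 0.09 (0.000788). After castration 5 were higher and 3 lower, where 12.1% of all probes passed, with Abcb1a at 1.74 ± 0.28 (3.17e-05) and Abcb1b at -0.50 ± 0.09 (0.000185). Both comparisons share the intact males. The list's median difference was 0.18 between the sexes and 0.33 after castration, beside 0.01 and 0.02 over all probes. With E2, 1 fell in ovariectomized females (0.632% of all probes passed), and 1 rose and 2 fell in castrated males (1.18%). With DHT, 1 rose in ovariectomized females (1.15%), and 2 rose and 1 fell in castrated males (3.47%).

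Of the electron and heme supply of P450 enzymes 10 of 17 genes were measured, and P450 reductase (Por) was not analysed here. Alas1, the rate-limiting enzyme of heme synthesis, was lower in intact females than males by -0.84 ± 0.25 (limma, adjusted p = 0.03), fell by 0.85 ± 0.25 after castration (0.023), and rose with DHT by 1.58 ± 0.25 in castrated males (0.000329) and 0.99 ± 0.25 in ovariectomized females (0.042), and with E2 by 1.00 ± 0.25 in castrated males (0.0415). The other call on this list after castration was Hmox1, which degrades heme, at 1.21 ± 0.30 (0.00521), so 2 of 10 passed there beside 12.1% of all probes. In the other comparisons named, Alas1 was the 1 of 10 that passed, beside 8.69%, 3.47%, 1.15% and 1.18% of all probes in that order. Of the growth hormone and sex-biased regulators 16 of 19 were measured, of which 2 were higher in intact females and 3 rose after castration, beside 8.69% and 12.1% of all probes. Tox, known for a female bias in liver, was higher in intact females by 0.80 ± 0.23 (0.0226) and rose by 0.83 ± 0.23 after castration (0.0146), and Cux2, a female-biased repressor, rose by 1.14 ± 0.31 after castration (0.0124). With E2 against DHT in ovariectomized females 4 of the 16 were higher, beside 3.79% of all probes.

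Sex steroid receptors and steroid-metabolizing enzymes, with 16 of 23 measured, fell for 5 and rose for 0 after castration, where 6.92% of all probes passed as lower and 12.1% in either direction. The glucuronosyltransferase Ugt2b5 fell by 1.70 ± 0.27 (limma, adjusted p = 2.22e-05) on the probe used, with -0.57 to -0.03 on its other probes, Akr1c6 by 0.78 ± 0.16 (0.000814) and Hsd3b2 by 0.95 ± 0.24 (0.0062). Hsd3b2 rose with DHT by 1.51 ± 0.24 in castrated males (0.000329) and by 0.98 ± 0.24 in ovariectomized females (0.0313), and with E2 by 0.98 ± 0.24 in castrated males (0.0334). It was the 1 of 16 that passed in each of these comparisons, where 3.47%, 1.15% and 1.18% of all probes did. Of 72 genes next to the Cyp3a loci 16 were measured. After castration Zscan21 fell by 0.53 ± 0.12 (0.00207) and Stag3 rose by 0.15 ± 0.05 (0.0465), and Stag3 was higher in intact females than males by 0.21 ± 0.05 (0.00702). With E2 against DHT in ovariectomized females Pilra and Pilrb1, paired receptors of myeloid cells, were higher by 1.31 ± 0.26 (0.00299) and 0.65 ± 0.15 (0.00785). These counts were 2, 1 and 2 of 16, beside 12.1%, 8.69% and 3.79% of all probes.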

How the data were processed

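Liver RNA of 40 mice (Cy5) was read against a pool of C57BL/6J liver (Cy3) on 2-colour arrays, per the labels. The deposited value table holds log10 ratios, whose base was settled from the values and whose background correction, normalization and centring are not given in the sources used here; each was multiplied by 3.32 to give log2. Signal over background was not analysed here, so the number of arrays limits the precision. Probes were named from the platform annotation where it gave 1 symbol (13665 probes; 48 had several and 9861 none) and the gene was found in RefSeq's table (12662). In R 4.3.3, limma 3.58.1 (lmFit, eBayes) fitted 8 group means to 40 arrays, with 32 residual and 3.42 prior degrees of freedom, for 13 two-sided comparisons, with Benjamini-Hochberg adjustment over 23574 probes. The script was tested on simulated data. The members and gene lists were chosen with earlier results of these data known. All Cyp3a probes are named, with the 3 most correlated genes outside the family for each called probe, up to 3 called members of each related list by smallest adjusted p, and Eif2s3y and Kdm5d; others named were chosen after their values were seen. Where 1 probe per gene was needed, the one with the largest SD was used. Alternatives were quantile normalization, subtracting array medians, array weights, fitting the compared groups alone, a clock gene covariate, adjusting over probes with 1 symbol, leaving out each animal and, added after seeing the data, the array axis as a covariate. A replicate is an animal.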

Additional observations from a re-analysis of the deposited data

Results flagged for a closer look

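In 72 groups of 5 values, 5 had an animal whose gap to its nearest neighbour exceeded 0.71 of the group's range, and chance alone gives this in about 1 in 20 such groups. Castrated male 63 with DHT stood above its group on 3 probes: at 1.07 for Cyp3a13 (nearest animal -0.43), at 0.25 for Cyp3a25 probe 1 (nearest -0.21) and at 0.47 for Cyp3a25 probe 2 (nearest -0.41). These are 3 readings of 1 liver, whose array weight was 0.459 and whose position on the array axis was 1.21, the highest of its group. Intact male 11 was low for Cyp3a13 at -1.15 (nearest -0.26), and intact male 9 was high for Cyp3a41a probe 1 at 0.37 (nearest -0.01). Their array weights were 0.411 and 0.317. The part of the arrays in these values was not tested.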

How the results depend on the processing

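No paired analysis was possible because each animal number occurs in 1 group. The count of 2 Cyp3a probes after castration became 0 with quantile normalization, 0 with the compared groups alone in the fit, 1 with the clock covariate, 0 with the array axis as a covariate and 5, all lower, with array weights; leaving out 1 animal gave 0 to 3. The count of 0 became 1 with array weights for E2 against placebo in females (0 to 1 leaving out 1 animal). For DHT against placebo in females it became 1 with quantile normalization, 4 with array weights and 2 with the compared groups alone (0 to 1). For E2 against DHT in females it became 2 with array weights and 1 with the array axis (0 to 1). For the DHT interaction it became 1 with array weights, by Cyp3a13 at 1.17 (limma, adjusted p = 0.0462). The other 8 comparisons kept a count of 0 in all settings run. Array weights raised the calls over all probes too, from 2856 to 7762 after castration. Of single probe differences, 1421 kept their side of the threshold on leaving out 1 animal, 5 passed and 14 were lost; over the other settings these were 797, 15 and 7. No call changed sign, and 115 uncalled differences did. The causes were not tested. With 5 arrays a group and the wide spread of Cyp3a probes, intervals were broad, and signal over background is unknown.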
